A study of Mus musculus with 24 samples.

Results

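The proteasome genes are the 48 genes of the mouse whose symbol is Psma, Psmb, Psmc, Psmd, Psme, Psmf or Psmg plus a number, pseudogenes left out, among 52636 genes in the count files. They were measured in RNA that was recovered with polysomes, that is, messenger RNA carrying ribosomes, from livers of C57BL/6 mice aged 5 months. Calorie-restricted (CR) mice received 30% fewer calories for 3 months from the age of 2 months, and ad libitum (AL) mice ate freely. Sampling at zeitgeber times (ZT, hours after lights on) of 2, 6, 10, 14, 18 and 22 h means that 6 CR groups and 6 AL groups held 2 libraries each, 24 libraries in all. The labels do not say that the libraries of a group came from separate animals, so the p-values measure the spread between libraries, which may be technical. Total RNA was not analysed here, and the amount of a transcript and its loading with ribosomes cannot be told apart.

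The proteasome is the complex that degrades proteins tagged with ubiquitin. Its core particle stacks rings of alpha subunits (Psma), which form the gate, and beta subunits (Psmb), of which Psmb5, Psmb6 and Psmb7 carry the cutting sites. The regulatory particle that caps the core has a base with ATPases (Psmc), which unfold substrates, and a lid (Psmd), which removes ubiquitin. In immune cells, and in other cells after interferon gamma, Psmb8, Psmb9 and Psmb10 are built in instead of Psmb5, Psmb6 and Psmb7. The resulting immunoproteasome yields peptides for presentation by class I molecules.

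The libraries held 13.8 to 60.8 M counted reads (M, mega), with a median of 29.5 M, of which 1.02% to 62.2% fell on features of ribosomal RNA. The proteasome genes made up 0.453% to 0.907% of the reads outside those features. Summed levels of 6 hepatocyte markers, such as Alb and Apoa1, were 41300 to 92600 CPM (counts per M of the corrected library size) in CR livers and 33500 to 72200 CPM in AL livers, and 0 of the 6 passed the diet test described below, with log2 fold changes of -0.39 (Apoa1) to 0.52 (Cps1). CPM are counts scaled to library sizes that were corrected for composition.

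Of the 48 genes, 47 passed the filter on low counts and were tested. Psmb11, a catalytic subunit of the thymus, had 0 counts in each of the 24 libraries, which allows at most 0.342 CPM in the library with the highest limit. Psma8, an alpha subunit of the testis, lay between 0 and 66 counts per library. Its level was 0 to 1.02 CPM in CR livers and 0.114 to 1.72 CPM in AL livers, the lowest of the genes tested.

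Levels of different genes are compared per kilobase of merged exons, as means over the 24 libraries. Among constitutive catalytic subunits Psmb6 stood at 151 CPM per kb and Psmb5 at 117 CPM per kb, while Psmb7 had only 5.29 CPM per kb. Among their inducible counterparts Psmb10 had 33.3 CPM per kb, Psmb8 had 9.88 CPM per kb and Psmb9 had 5.69 CPM per kb. The non-catalytic beta subunits ranged from 39.4 (Psmb1) to 161 CPM per kb (Psmb4), and the alpha ring from 17.0 (Psma1) to 75.1 CPM per kb (Psma6). ATPases lay between 13.1 (Psmc2) and 90.02 CPM per kb (Psmc5), other base subunits between 7.88 (Psmd1) and 45.7 CPM per kb (Psmd2), and lid subunits between 10.2 (Psmd14) and 37.7 CPM per kb (Psmd8). Base assembly chaperones ranged from 1.80 (Psmd5) to 6.84 CPM per kb (Psmd10), core assembly chaperones from 6.67 (Psmg3) to 44.8 CPM per kb (Psmg4), and the activators from 5.77 (Psme4) to 70.0 CPM per kb (Psme2). The regulator Psmf1, an inhibitor of the core in vitro, had 2.20 CPM per kb. The length used matters here: per kilobase of the principal transcript, a choice made after seeing the data, Psmb6 stood at 354 CPM per kb, Psmb7 at 15.6, Psmb9 at 15.4 and Psmd9 at 17.4 CPM per kb. Subunits of the same ring therefore differed several-fold in polysomal level on either scale, Psmb7 lying far below Psmb5 and Psmb6.

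Diet changed few of these genes. Averaged over the 6 time points, Psmd9, a chaperone that guides assembly of the ATPase ring, was higher in CR livers, and Psmb9, the inducible counterpart of Psmb6, was lower. These 2 of 47 genes, 4.26%, passed an adjusted p of 0.05 (edgeR's quasi-likelihood test, Benjamini-Hochberg over all genes), where 12.7% of the 15490 genes tested did. By direction, 1 gene was higher, against 5.6% of all genes, and 1 was lower, against 7.05%. Over the 47 genes 27 log2 fold changes were above 0 and 20 below, the median being 0.05, beside -0.02 for all genes tested. The unadjusted p was under 0.05 for 9 of the 47 genes (19.1%, against 26.6% of all genes). The share of proteasome genes called thus lay below that of all genes.

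**Figure D1:**
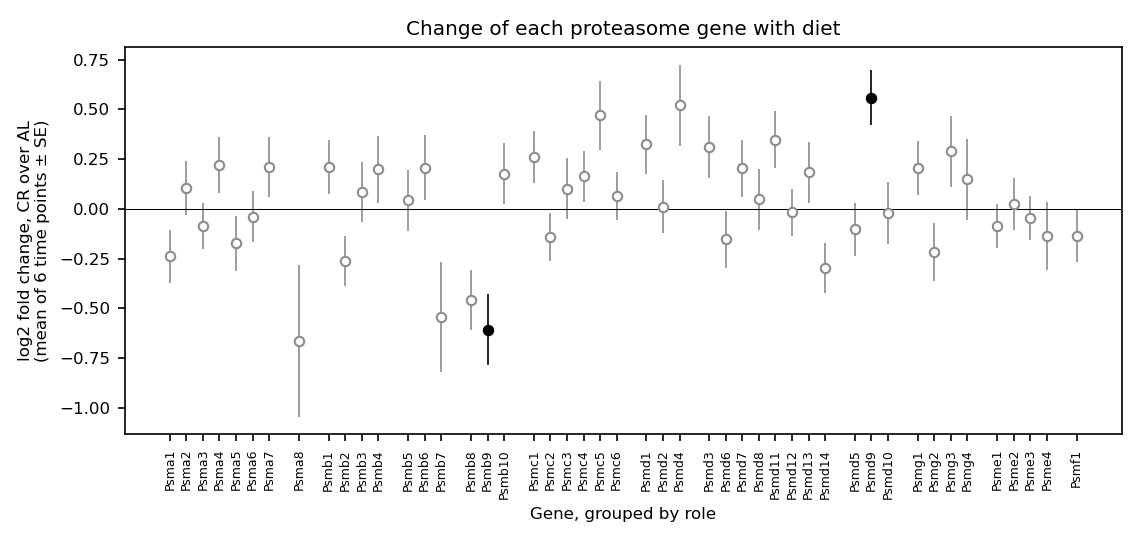
The log2 fold change of each of the 47 tested proteasome genes, CR over AL, averaged over 6 time points, with its standard error as bars. Filled points passed the adjusted threshold: Psmd9 at 0.56 and Psmb9 at -0.61, while the open points spread on both sides of 0.

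Psmb9 (ENSMUSG00000096727.2) had 5.62 to 23.0 CPM in CR livers, with a median of 16.6 CPM, against 13.1 to 32.0 CPM in AL livers, with a median of 28.2 CPM. Its log2 fold change was -0.61 ± 0.18 (SE) with an adjusted p of 0.0285 in edgeR's test. All 12 CR libraries lay below the AL median, and at 4 of the 6 time points (ZT2, ZT6, ZT14 and ZT18) both CR libraries lay below both AL libraries. Such order among 4 libraries was not particular to Psmb9. It held at 4 time points for Psma8 and at 3 for Psma1, Psma3 and Psme1, none of them called. The share over all genes was not computed. The gap of Psmb9 was widest at ZT14, where the CR libraries had 10.4 and 15.7 CPM and the AL libraries 32.0 and 28.6 CPM. At ZT22 the order was the other way round, with 23.0 and 18.2 CPM in CR livers and 17.6 and 13.1 CPM in AL livers. The call was lost when any of 9 libraries was left out (AL ZT2 1, AL ZT10 1, AL ZT14 1, AL ZT22 2C, CR ZT2 1, CR ZT14 1, CR ZT18 1, CR ZT22 1 or CR ZT22 2), with adjusted p between 0.0504 and 0.0826. It was lost as well without composition factors (adjusted p = 0.189) and without AL ZT22 2C and AL ZT10 1 together (adjusted p = 0.0936). The fold change stayed between -0.82 and -0.50 in the fits that left out 1 library.

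Psmb8, the inducible counterpart of Psmb5, had 12.9 to 41.5 CPM in CR livers, with a median of 25.4 CPM, against 21.5 to 59.9 CPM in AL livers, with a median of 38.3 CPM. Its log2 fold change of -0.46 ± 0.15 missed the threshold (adjusted p = 0.0527 in edgeR's test). It also missed in DESeq2 (adjusted p = 0.0605), without AL ZT22 2C and AL ZT10 1 (adjusted p = 0.148) and without composition factors (adjusted p = 0.293). It passed in limma-trend (adjusted p = 0.0349), in edgeR without CR ZT10 1, CR ZT14 2 or CR ZT18 2, and with -0.66 and an adjusted p of 0.00405 without the 4 libraries under 3% ribosomal RNA. Those 4 libraries were AL ZT6 1, CR ZT10 1, CR ZT18 2 and CR ZT22 1. Both CR libraries lay below both AL libraries at ZT6, ZT18 and ZT22, and 10 of 12 CR libraries lay below the AL median. The uncalled Psma1 and Psma3 also had 3 such time points. Psmb10, the inducible counterpart of Psmb7, had 31.1 to 97.1 CPM in CR livers, with a median of 56.4 CPM. In AL livers it had 18.3 to 100.5 CPM, with a median of 57.7 CPM. Its log2 fold change was 0.18 ± 0.15 (adjusted p = 0.507 in edgeR's test), so no direction was shown for it.

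The constitutive catalytic genes did not pass the test on the diet average. Psmb5 had 52.4 to 171.6 CPM in CR livers and 44.7 to 261.6 CPM in AL livers, with a log2 fold change of 0.04 ± 0.15 (adjusted p = 0.926 in edgeR's test). Psmb6 reached 489.3 CPM in CR livers, with a median of 292.7 CPM, and 580.7 CPM in AL livers, with a median of 248.0 CPM, and had a log2 fold change of 0.21 ± 0.16 (adjusted p = 0.465 in edgeR's test). For both genes the highest library was an AL library of ZT18, and the ranges of the diets overlapped widely. Psmb7 ranged over 2.26 to 40.6 CPM in CR livers, with a median of 14.2 CPM, and 8.39 to 36.0 CPM in AL livers, with a median of 21.2 CPM. Its log2 fold change was -0.54 ± 0.28 (adjusted p = 0.218 in edgeR's test), and 11 of 12 CR libraries lay below the AL median. The 2 CR libraries of ZT10 were its lowest and its highest value. Without CR ZT10 2 the fold change was -1.09 with an adjusted p of 4.6e-05 in edgeR's test. With all libraries kept, it passed in the fit without a filter on low counts (-0.55, adjusted p = 0.0135) and not in DESeq2 (adjusted p = 0.192) or limma-trend (adjusted p = 0.119).

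**Figure D2:**
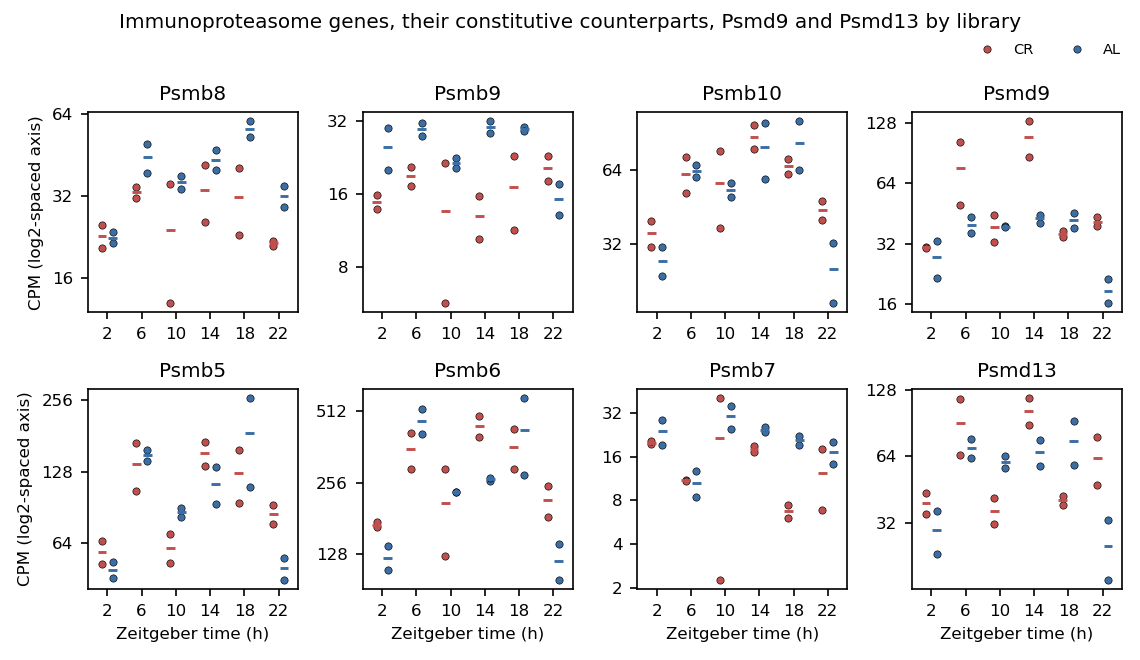
CPM in every library on a log2-spaced axis against zeitgeber time (h), for the immunoproteasome genes and Psmd9 (top) and the constitutive counterparts and Psmd13 (bottom). Points are libraries, bars are means of 2, with CR left of AL; Psmb9 lies lower in CR at 5 of 6 time points, and Psmd9 is highest in CR at ZT14.

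The ratio of an inducible gene to its constitutive counterpart within a library does not depend on library size or composition. It is a ratio of counts and not per length, so it is compared between diets and not between pairs. Psmb8 counts came to 28.9 ± 9.27% of Psmb5 counts in CR livers and 42.9 ± 14.8% in AL livers (SD, n = 12 each). Psmb9 counts came to 6.20 ± 2.52% of Psmb6 counts in CR livers and 11.4 ± 5.22% in AL livers (SD, n = 12 each). Both ratios were lower in CR livers at 6 of 6 time points, which does not mean that the inducible gene was lower at each. Psmb8 and Psmb9 each had the higher mean in CR livers at 1 of 6 time points. For Psmb9 this was ZT22, where both CR libraries lay above both AL libraries for Psmb9, Psmb6 and Psmb5 alike. Psmb6 had 247.8 and 183.9 CPM there in CR livers, against an AL mean of 120.6 CPM.

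The log2 ratio of Psmb8 to Psmb5 was lower in CR livers by a mean of -0.55. In an exact permutation test of the diets within time points, over 46656 divisions and two-sided, p was 0.00609, or 0.00913 when adjusted over the 3 pairs. At single time points the difference ran from -0.23 at ZT2 to -1.33 at ZT22. At ZT22 the CR libraries had log2 ratios of -2.09 and -1.87 and the AL libraries -0.37 and -0.93. At that hour Psmb8 had 21.87 and 21.01 CPM in CR livers and 34.7 and 29.1 CPM in AL livers. Psmb5 had 93.01 and 76.75 CPM in CR livers and 44.7 and 55.53 CPM in AL livers, so both genes entered the difference. The AL libraries of ZT22 had 61.3% and 62.2% ribosomal RNA, whose part in the difference was not tested. The log2 ratio of Psmb9 to Psmb6 differed by -0.87, with an exact permutation p of 0.000386, adjusted 0.00116. It was largest at ZT14, with -5.26 and -4.96 in CR livers and -3.03 and -3.23 in AL livers, and smallest at ZT6, with a difference of -0.23. Both differences passed the test whichever library was left out, at -0.64 to -0.46 for Psmb8 to Psmb5 and at -0.95 to -0.79 for Psmb9 to Psmb6.

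The third ratio, Psmb10 to Psmb7, ran the other way. It was higher in CR livers by 0.92 on the log2 scale (exact permutation p = 0.0292, adjusted 0.0292), and at 5 of 6 time points. The level of Psmb7 differed with ribosomal RNA: it had 2.26 to 8.39 CPM in the 4 libraries under 3% ribosomal RNA and 6.01 to 40.6 CPM in the other 20, and 3 of those 4 libraries are CR. Without them the difference was 0.40 (exact permutation, adjusted p = 0.203). It also missed the threshold without CR ZT10 1, CR ZT22 1, AL ZT10 1, AL ZT10 2 or AL ZT22 2d, with adjusted p of 0.0631 to 0.168 in exact permutation tests. The part of ribosomal RNA in the ratio was not tested.

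**Figure D3:**
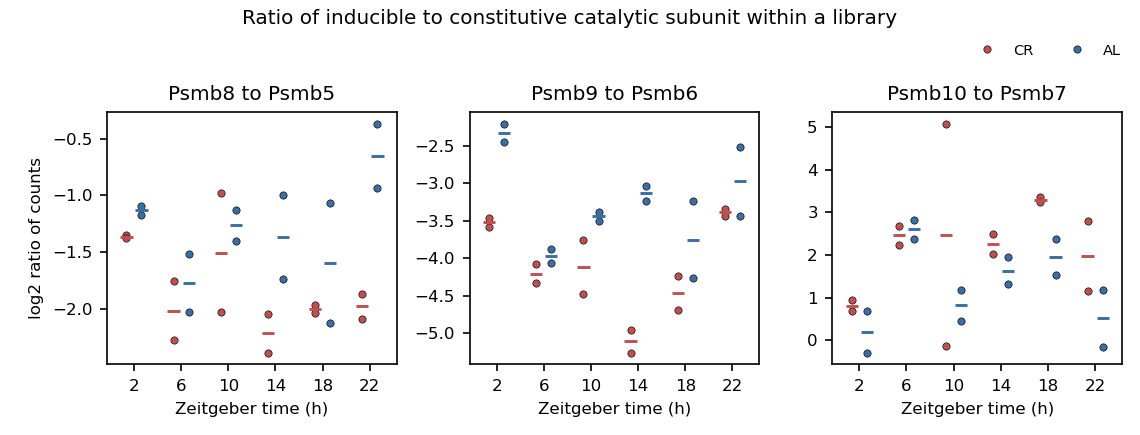
The log2 ratio of counts of each inducible gene to its constitutive counterpart against zeitgeber time (h). Points are libraries and bars means of 2, with CR left of AL; the means for Psmb8 to Psmb5 and Psmb9 to Psmb6 are lower in CR at 6 of 6 time points, and Psmb10 to Psmb7 is spread most by the CR libraries of ZT10.

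Reads shared with other genes touch several of these values, since the libraries carry no strand. Exons of Psmb9 overlap those of Tap1 over 5.8% of their length, and exons of Psmb8 overlap Gm20496, which was listed at 0 in all libraries, over 14.7%. Exons of Psmb7 overlap those of Nek6 over 11.8%, and Nek6 was itself lower in CR livers, at 18.7 ± 8.996 CPM against 30.8 ± 6.29 CPM in AL livers (SD, n = 12 each; log2 fold change -0.87, adjusted p = 2.5e-05 in edgeR's test). Of the words of 50 bases in the transcripts of Psmb5, 54.1% also occur in other annotated genes, so its counts are uncertain. The part of such shared reads in the results was not tested.

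The immunoproteasome genes were set beside other genes of their pathway and beside markers of cells that carry much of it. Of 11 genes of class I antigen processing 0 were higher and 2 lower in CR livers, where 5.6% and 7.05% of all genes were, and their median log2 fold change was -0.03. Tap1, a subunit of the peptide transporter, had 10.0 ± 4.41 CPM in CR livers and 14.8 ± 4.32 CPM in AL livers (SD, n = 12 each), with a log2 fold change of -0.61 (adjusted p = 0.0329 in edgeR's test). B2m, the light chain of class I molecules, had a log2 fold change of -0.53 (adjusted p = 0.041 in edgeR's test). H2-D1, a class I heavy chain, had -0.03 and Tap2, the other subunit of the transporter, 0.22, and neither passed.

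Of 24 interferon-response genes 0 were higher and 10 lower in CR livers, where 5.6% and 7.05% of all genes were. Their median log2 fold change was -0.43. Iigp1, an interferon-induced GTPase, had -0.72 (adjusted p = 0.000738), and Oas1a, an interferon-induced sensor of double-stranded RNA, had -1.27 (adjusted p = 0.000953), both in edgeR's test. The chemokines Cxcl10 (-1.55) and Cxcl9 (-1.17) were lower as well, at low levels. Cxcl10 had means of 0.46 CPM in CR livers and 1.38 CPM in AL livers, and Cxcl9 of 2.4 and 5.26 CPM. Irf1, which drives immunoproteasome genes, had 0.14 (adjusted p = 0.699) in edgeR's test.

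Most markers of Kupffer cells, the macrophages of the liver, were also lower in CR livers. Of 17 markers 15 were lower and 1, Marco, was higher in CR livers, against 7.05% and 5.6% of all genes, with a median log2 fold change of -1.17. Their summed level was 162 to 284 CPM in CR livers and 293 to 835 CPM in AL livers, and at 6 of 6 time points both CR libraries lay below both AL libraries. Clec4f, which in the liver marks Kupffer cells, had 26.8 ± 4.82 CPM in CR livers and 61.6 ± 24.4 CPM in AL livers (SD, n = 12 each). Of 15 tested lymphocyte markers 3 were lower (Cd4, Ighm and Ptprc), with summed levels of all 17 markers of 7.11 to 22.9 CPM in CR livers and 10.4 to 42.9 CPM in AL livers. Dendritic cell markers (4 tested) and neutrophil markers (4 tested) gave 0 calls, with sums of 1.58 to 4.82 CPM and 2.31 to 35.6 CPM in CR livers and 1.81 to 4.90 CPM and 2.17 to 104 CPM in AL livers; Flt3, Cd209a, Ly6g and Mpo were too low to test. In bulk RNA, fewer cells of a type and less RNA per cell cannot be told apart, and the part of these cells in the lower Psmb9 was not tested. Other cell types went separate ways: 5 of 12 stellate cell markers were higher, 1 of 10 endothelial markers was higher and 1 lower. Of 5 cholangiocyte markers 0 passed, and 1 of 3 erythroid markers was lower. The shares of all genes, 5.6% higher and 7.05% lower, are the measure for each of these counts of markers.

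Psmd9 (ENSMUSG00000029440.15) had 30.6 to 130.4 CPM in CR livers, with a median of 41.3 CPM, against 16.1 to 45.5 CPM in AL livers, with a median of 38.6 CPM. Its log2 fold change averaged over the day was 0.56 ± 0.14 (adjusted p = 0.00886 in edgeR's test). The medians of the diets lay close together. At ZT14 the CR libraries had 130.4 and 86.8 CPM and the AL libraries 40.9 and 44.7 CPM. At ZT6 the CR libraries had 49.97 and 103.6 CPM and the AL libraries 43.6 and 36.1 CPM. At ZT22 the CR libraries had 43.3 and 39.2 CPM and the AL libraries 21.3 and 16.1 CPM. At these 3 time points the diets did not overlap. Both CR libraries also lay above both AL libraries at 3 time points for the uncalled Psmb4, Psmc4 and Psmd4. For Psmd9, both CR libraries lay below both AL libraries at ZT18. The call held whichever library was left out (adjusted p of 0.00236 to 0.0292) and was lost without composition factors (adjusted p = 0.0929). Exons of Psmd9 overlap Gm26745 over 25.5% of their length. Gm26745 was listed at 0 in all libraries, which does not show how reads on the shared stretch were counted. The part of such reads was not tested.

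The other 2 base assembly chaperones were not called on the diet average, though part of the pattern recurred. Both CR libraries lay above both AL libraries at ZT14 and ZT22 for Psmd10 and at ZT22 for Psmd5. They lay below at ZT10 for Psmd10 and at ZT2 and ZT6 for Psmd5. Psmd5 had a log2 fold change of -0.10 ± 0.13 and Psmd10 of -0.02 ± 0.15, and both missed the threshold. Of the core assembly chaperones, Psmg1 to Psmg4, 0 of 4 passed, at -0.22 (Psmg2) to 0.29 (Psmg3). Among the structural subunits outside the immunoproteasome 0 passed in any role group. The alpha ring ran from -0.24 (Psma1) to 0.22 (Psma4) and the non-catalytic beta subunits from -0.26 (Psmb2) to 0.21 (Psmb1). The ATPases ran from -0.14 (Psmc2) to 0.47 (Psmc5) and the lid from -0.30 (Psmd14) to 0.35 (Psmd11). In the base outside the ATPase ring, Psmd4, a receptor for ubiquitin, had the largest value, 0.52 ± 0.20 (adjusted p = 0.0994 in edgeR's test), with CR means above AL means at 6 of 6 time points. Psmd4 and Psmc5 passed in DESeq2, with adjusted p of 0.049 and 0.0358.

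Activators and the inhibitor did not pass with diet. Psme1 and Psme2, which form an activator ring induced by interferon gamma, had log2 fold changes of -0.09 ± 0.11 and 0.02 ± 0.13. Psme1 had 83.5 to 186.6 CPM in CR livers and 70.6 to 178.5 CPM in AL livers, and Psme2 had 64.5 to 166.4 CPM in CR livers and 69.0 to 201.6 CPM in AL livers. For Psme1 10 of 12 CR libraries lay below the AL median and for Psme2 7 of 12, and the ranges of the diets overlapped for both. Psme3, a nuclear activator, had 26.1 to 40.8 CPM in CR livers and 26.2 to 41.4 CPM in AL livers (log2 fold change -0.05 ± 0.11). Psme4, a large single-chain activator, had 23.6 to 101.4 CPM in CR livers and 36.7 to 65.0 CPM in AL livers (-0.14 ± 0.17). Psmf1 had 8.83 to 18.4 CPM in CR livers and 10.8 to 18.5 CPM in AL livers (-0.14 ± 0.13). Psma8 had a log2 fold change of -0.66 ± 0.38 (adjusted p = 0.281 in edgeR's test) at the low levels given above.

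Few genes around the proteasome were called. Of 15 partners without a Psm symbol 1 was higher, Ubqln4, a shuttle that carries ubiquitin-tagged proteins (0.40, adjusted p = 0.0499 in edgeR's test). Pomp, the chaperone that completes the core, had -0.03, and Adrm1, a ubiquitin receptor of the base, 0.02. Of 9 genes of NRF1 and NRF2 control, the transcription factors that raise proteasome genes, 1 was higher: Mafg, a small partner of both, at 0.66 (adjusted p = 0.00393 in edgeR's test). Nfe2l1, which encodes NRF1, had 84.6 ± 19.9 CPM in CR livers and 68.8 ± 20.7 CPM in AL livers (SD, n = 12 each) and did not pass (0.29, adjusted p = 0.252 in edgeR's test). None of 6 genes of ubiquitin and its activation and none of 9 genes of the p97 complex, which extracts substrates, passed edgeR's test. Of 6 peptidases that act on proteasome products, Lap3 was lower (-0.41, adjusted p = 0.0265) and Nln higher (0.43, adjusted p = 0.0487), both in edgeR's test. The share of all genes that were called, 12.7%, is the measure for each of these counts.

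Promoters are shown for Psmb9 and Psmd9, the genes called with diet, and for Psmb8, which lies near Psmb9 on chromosome 17. Psmb9 and Tap1 are transcribed away from each other from a shared promoter region. Both were lower in CR livers and their exons overlap, and the part of the shared region in this was not tested. The windows of 300 bases run from 250 bases before to 50 after the start site of a RefSeq transcript on build GRCm38.p6, and capitals mark a motif on either strand. Psmb9 is given on the minus strand, chr17:34187281-34187580, and Psmb8 and Psmd9 on the plus strand, chr17:34197945-34198244 and chr5:123227940-123228239.
Psmb9: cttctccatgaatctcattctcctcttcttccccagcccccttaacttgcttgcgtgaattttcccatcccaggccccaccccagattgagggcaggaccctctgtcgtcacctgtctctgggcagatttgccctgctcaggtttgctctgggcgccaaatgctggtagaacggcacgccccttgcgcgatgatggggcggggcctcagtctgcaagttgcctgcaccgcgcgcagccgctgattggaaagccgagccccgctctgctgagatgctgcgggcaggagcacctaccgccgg
Psmb8: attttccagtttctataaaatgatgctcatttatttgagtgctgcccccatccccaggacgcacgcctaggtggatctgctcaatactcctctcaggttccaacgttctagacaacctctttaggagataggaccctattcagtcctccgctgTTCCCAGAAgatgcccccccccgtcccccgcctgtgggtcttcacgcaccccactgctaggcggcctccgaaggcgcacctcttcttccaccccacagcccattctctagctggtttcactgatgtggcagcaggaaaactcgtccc
Psmd9: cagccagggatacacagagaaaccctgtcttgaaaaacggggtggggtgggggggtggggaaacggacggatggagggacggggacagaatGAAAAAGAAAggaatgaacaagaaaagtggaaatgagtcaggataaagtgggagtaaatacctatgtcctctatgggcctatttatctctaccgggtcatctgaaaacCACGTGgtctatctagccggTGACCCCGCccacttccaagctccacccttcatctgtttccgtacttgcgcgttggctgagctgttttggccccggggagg
The motifs searched were the antioxidant response element core TGACNNNGC, the interferon-stimulated response element core GAAANNGAAA, the STAT site core TTCNNNGAA and the E-box CACGTG. The Psmb9 window held no match. The Psmb8 window held a STAT site core whose first base lies at -97 from the start site. The Psmd9 window held an interferon-stimulated core at -159, an E-box at -51 and an antioxidant core at -31. Promoter windows were found for 40 members. The antioxidant core was present in 15.0% of these members and 14.0% of all genes with a window, the interferon-stimulated core in 12.5% and 3.99%, the STAT core in 7.5% and 9.55%, and the E-box in 10.0% and 8.09%. A match says only that these letters are in the window.

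Differences between the diets at single time points rarely passed. At ZT14 Psmd9 was called, with a log2 fold change of 1.34 ± 0.34 (adjusted p = 0.0463 in edgeR's test), 1 of 47 genes against 1.7% of all genes. That call was lost without any of 14 libraries, those of both diets at ZT2 and ZT14, of AL at ZT10 and of CR at ZT18 and ZT22, with adjusted p up to 0.423. At the other time points edgeR called 0 of 47 genes, and the shares of all genes called were 0.562% at ZT2, 0.387% at ZT6, 0.742% at ZT10, 0.562% at ZT18 and 0.936% at ZT22. The unadjusted p was under 0.05 for 2 genes at ZT2 (4.26%, against 7.47% of all genes), 7 at ZT6 (14.9% against 13.7%), 2 at ZT10 (4.26% against 10.8%), 3 at ZT18 (6.38% against 10.5%) and 13 at ZT22 (27.7% against 14.3%). DESeq2 called 2 at ZT22, Psmd13 and Psmd9, where it called 3.36% of all genes, and none of the other 4 hours gave a call in DESeq2 or limma-trend.

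The medians of the 47 log2 fold changes turned from one hour to the next. They were 0.19 at ZT2, -0.30 at ZT6, -0.12 at ZT10, 0.28 at ZT14, -0.28 at ZT18 and 0.43 at ZT22, while the medians of all genes lay between -0.06 and 0.04. At ZT22 40 of 47 values were above 0, and at ZT18 40 were below. The test for a change of the diet effect over the day called 0 of 47 genes in edgeR, as it did 0.0% of all genes. There the unadjusted p was under 0.05 for 3 genes (6.38%, against 8.63% of all genes), DESeq2 called 1 (Psmd13), against 1.22% of all genes, and limma-trend 0.

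In AL livers, variation over the day was called for a larger share of proteasome genes than of all genes. In CR livers the shares were close. Of 47 genes 14 varied between the AL time points (29.8%, against 5.05% of all genes), and 4 varied between the CR time points (8.51%, against 6.91% of all genes). In AL livers these were Psmb2, Psmb3 and Psmb4 of the beta ring, the catalytic Psmb5, Psmb6 and Psmb10, the ATPases Psmc3, Psmc4 and Psmc5, Psmd2 of the base, Psmd13 of the lid, and the chaperones Psmg1, Psmg2 and Psmg3. In CR livers they were Psmb3, Psmb5, Psmd13 and Psmd9, of which the first 3 were called in both diets. The counts do not show that the diets differ in this, since the test of that difference called none.

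The 14 genes were highest at ZT6 (9 genes) or ZT18 (5 genes) and lowest at ZT22 (10 genes) or ZT2 (4 genes) in AL livers. The 2 AL libraries of ZT22 both carry the number 2 (2C and 2d), and the labels do not say whether they come from separate animals. The highest AL group mean of the 14 genes was 2.65 to 4.69 times the lowest. Psmb3 had the smallest adjusted p, 0.00547 in edgeR's test, with 488.5 and 327.2 CPM at ZT6 and 65.6 and 108.3 CPM at ZT22 in AL livers. Psmb4, a non-catalytic beta subunit, had 717.1 and 372.5 CPM at ZT6 and 167.2 and 139.6 CPM at ZT22 in AL livers (adjusted p = 0.0372 in edgeR's test). Psmb6 had AL means of 467.5 CPM at ZT6 and 120.6 CPM at ZT22, and Psmb5 of 186.0 CPM at ZT18 and 49.3 CPM at ZT2 (adjusted p of 0.0146 and 0.0132 in edgeR's test). The inducible Psmb10 followed the same hours, with AL means of 82.2 CPM at ZT18 and 25.2 CPM at ZT22 (adjusted p = 0.0209 in edgeR's test). Among the others, Psmb2 and Psmd2 had adjusted p of 0.0165, Psmg1 0.0302, Psmg3 0.0337, Psmc4, Psmd13 and Psmg2 0.0366, Psmc5 0.0387 and Psmc3 0.0427 in edgeR's test.

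In CR livers Psmd9 varied most clearly, with an adjusted p of 0.00412 in edgeR's test, its highest group mean of 108.6 CPM at ZT14 and its lowest of 30.7 CPM at ZT2. Psmd13 had 117.4 and 88.4 CPM at ZT14 and 31.4 and 41.2 CPM at ZT10 in CR livers (adjusted p = 0.0253 in edgeR's test). Psmb3 was highest at ZT18, at a mean of 275.6 CPM, and lowest at ZT2, at 98.0 CPM, and Psmb5 had 153.4 CPM at ZT14 and 58.8 CPM at ZT2 (adjusted p of 0.0422 and 0.0475 in edgeR's test). Over all 47 genes the highest CR mean lay at ZT14 for 20 and at ZT6 for 14, and the highest AL mean at ZT6 for 26 and at ZT18 for 13. These counts were not tested against each other.

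The mean over the 47 genes, each taken as log2 level minus its own mean over the 24 libraries, showed the same hours. In CR livers it was -0.21 at ZT2, 0.21 at ZT6, -0.25 at ZT10, 0.27 at ZT14, 0.10 at ZT18 and -0.05 at ZT22. In AL livers it was -0.39 at ZT2, 0.45 at ZT6, -0.02 at ZT10, 0.02 at ZT14, 0.35 at ZT18 and -0.50 at ZT22. At AL ZT6 42 and at AL ZT18 43 of 47 genes lay above their own mean, and at AL ZT22 7 did.

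**Figure D4:**
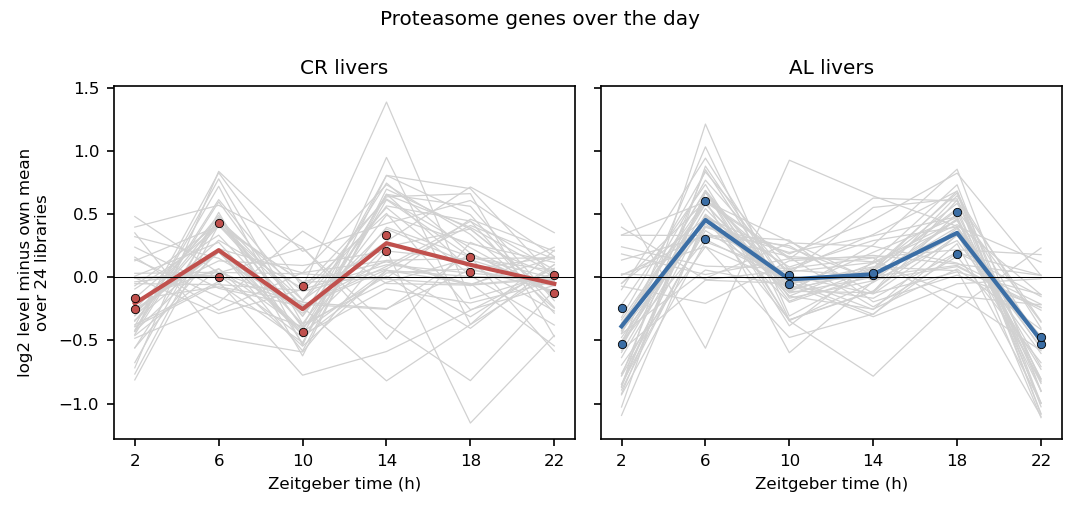
Log2 level minus the gene's own mean over 24 libraries, from CPM plus 0.5, against zeitgeber time (h), for CR (left) and AL (right). Grey lines are group means of single genes (Psma8 not drawn), points are the mean over 47 genes in each library and coloured lines their group means; AL falls to -0.39 at ZT2 and -0.50 at ZT22.

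The share of ribosomal RNA differed widely between the libraries of these hours. Both AL libraries of ZT22, the lowest group, had 61.3% and 62.2% ribosomal RNA, and AL ZT6 1, the highest library at 0.60, had 1.02%. Among other libraries, CR ZT10 2, at -0.43, had 52.1% and CR ZT2 1, at -0.25, had 62.1%. CR ZT6 2, at 0.43, had 49.0%, and AL ZT2 2, at -0.53, had 21.9%. Over the 5 AL time points other than ZT22, 2 of the 14 genes kept their call, Psmb3 (adjusted p = 0.0209) and Psmd2 (adjusted p = 0.0434, both in edgeR's test). The share of all genes called fell as well, from 5.05% with all libraries to 1.49% in that fit. Without the 4 libraries under 3% ribosomal RNA, 12 genes varied in CR livers, where 13.4% of all genes did, and 12 in AL livers, where 8.29% did. The part of ribosomal RNA in these hours was not tested.

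The count in AL livers rested on few libraries. It was 1 without AL ZT2 2 and 1 without AL ZT22 2C and AL ZT10 1, 4 without AL ZT6 1 or AL ZT22 2C, 5 without AL ZT2 1 or AL ZT22 2d, 6 without AL ZT10 1 or AL ZT10 2, 8 without AL ZT18 1, and 9 without CR ZT2 1, CR ZT2 2 or CR ZT14 1. It was 24 without CR ZT10 1 or CR ZT10 2. Psmb3 kept its AL call whichever library was left out, while the other 13 kept theirs in 5 (Psmc3) to 23 (Psmb5) of 24 such fits. The CR count ran from 0 without CR ZT14 1 to 16 without CR ZT10 1, and was 8 without CR ZT10 2. When 1 library was left out, the share of all genes called ran from 2.81% to 17.6% in CR livers and from 1.1% to 10.6% in AL livers. DESeq2 called 10 genes in CR livers, against 18.1% of all genes, and 26 in AL livers, against 15.7%. Limma-trend called 5 in CR livers, against 7.22%, and 17 in AL livers, against 5.46%, and a fit without composition factors 0, against 4.96%, and 2, against 6.17%.

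No smooth daily wave was called. A cosine of 24 h passed for 0 of 47 genes in CR livers, against 1.94% of all genes, for 0 in AL livers, against 0.42%, and its difference between the diets for 0, against 0.0%, in edgeR. The unadjusted p was under 0.05 for 4 genes in CR livers (8.51%, against 17.4% of all genes), 2 in AL livers (4.26% against 10.4%) and 1 for the difference (2.13% against 6.49%). DESeq2 and limma-trend each called 1 gene in CR livers, against 4.71% and 1.83% of all genes, and 0 in the other comparisons. The 1 gene was Psmd14, the lid enzyme that removes ubiquitin, in CR livers, where edgeR gave an amplitude of 0.52 and an adjusted p of 0.0621. Psmb10 had amplitudes of 0.52 in CR livers and 0.78 in AL livers, with peaks fitted at 13.3 h and 12.99 h and adjusted p of 0.27 and 0.188 in edgeR's test.

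**Figure D5:**
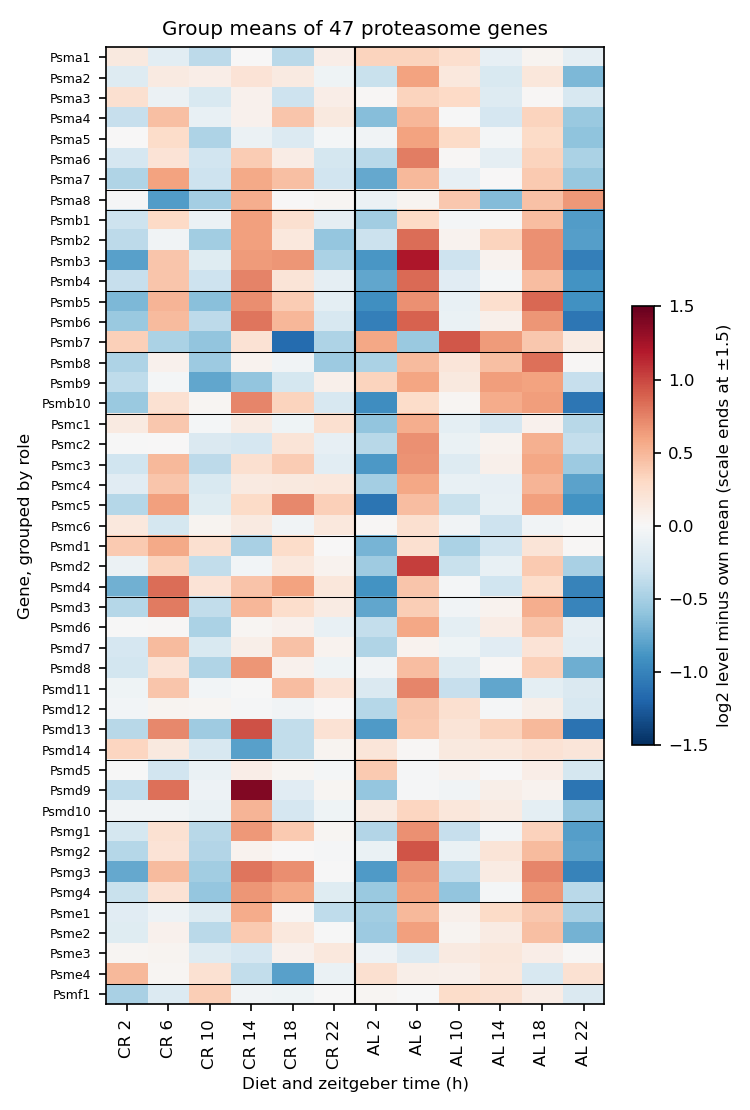
Group mean of the log2 level minus the gene's own mean, for 47 genes in rows grouped by role and 12 groups in columns, CR left of the line and AL right, each by zeitgeber time (h). Most rows are high at AL ZT6 and AL ZT18 and low at AL ZT2 and AL ZT22, while Psmb7, Psme4 and Psmd14 differ from the other rows.

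Most proteasome genes moved as a block across the libraries. Likeness was measured as Spearman's rho between a gene and the mean of the other 46 over the 24 libraries, which share depth and composition, and is given as a description. It was 0.96 for Psmb4, 0.95 for Psmb5, 0.93 for Psmc3 and 0.93 for Psmb3, and the median was 0.72. It was above 0.8 for 15 genes and below 0 for 6. Psmb7 had -0.42 and Psme4 -0.48, so that both tended to be low in libraries where most others were high, and Psmd14 had -0.25. Psme3 had 0.07, Psmf1 0.06 and Psma1 -0.10, close to no relation.

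The immunoproteasome genes followed the block to unequal degrees, with 0.72 for Psmb10, 0.62 for Psmb8 and 0.36 for Psmb9. Over the AL time points Psmb8 had its highest mean at ZT18, 56.2 CPM, and its lowest at ZT2, 22.5 CPM, and Psmb9 had its highest mean at ZT14, 30.3 CPM, and its lowest at ZT22, 15.3 CPM. The genes whose levels were most like those of Psmb8 over the 24 libraries, by Spearman's rho, were Serpina11 at 0.92, Edem2 at 0.88 and Cdhr5 at 0.88.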

How the data were processed

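Polysome-associated, poly(A)-selected RNA of mouse liver was sequenced without strand information, per the labels' protocols. For each of 24 libraries the authors deposited raw counts of reads per gene, which are whole numbers and not normalized. Per the submitters' processing notes they used FastQC, HTSeq and DESeq2 with build GRCm38.p5; no version or aligner is given in the sources used here. The counts list 52636 genes by Ensembl identifier, and 52403 matched a symbol in the GENCODE annotation of GRCm38, which also gave lengths and overlaps.

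Members were taken by symbol, and the members and all gene lists were chosen with earlier results of these data known. The deposited counts were tested in R 4.3.3 with edgeR 4.0.16 (quasi-likelihood tests, trimmed mean of M-values, filterByExpr over 12 groups, 15490 genes kept, Benjamini-Hochberg adjustment over all of them at 0.05). A mean per group was fitted over all 24 libraries. Contrasts were the mean CR minus AL difference over 6 time points, the difference at each time point, its change over time, variation over time per diet and a 24 h cosine. CPM are counts per M of the corrected library sizes. Ratios of counts used a prior count of 0.5 and an exact permutation test of the diets within time points.

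Immunoproteasome genes, their counterparts, activators, the inhibitor, tissue-restricted genes and every member called are named with values; other members by the highest and lowest of their role. Up to 4 genes of smallest p are named per list, with further list members beside them whose choice was made after their values were seen. Lists are described by counts, with no list test. Depth was 13.8 to 60.8 M counts per library (M, mega), and the smallest count of Psmb9 in a library was 135. Limits from counts of 0 use 3 counts and cover counting error only.

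Alternatives were DESeq2 1.42.0, limma-trend (limma 3.58.1), other scalings and filters, a replicate block, an additive model, fits on part of the libraries and leaving out each library. Leaving out the 4 libraries under 3% ribosomal RNA or both AL ZT22 libraries, and levels per principal transcript, were chosen after seeing the data. The procedures were tested on simulated counts. Replicate numbers name libraries and were not taken to pair them.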

Additional observations from a re-analysis of the deposited data

How the results depend on the processing

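Of 1691 values of single genes on the diet average under other settings 1590 kept their direction and their side of the threshold, 12 lost a call, 23 gained one and 66 changed sign. The 66 sign changes came from 14 genes near 0, and 0 of these values passed the test. Without the 4 libraries under 3% ribosomal RNA, Psma6 had 0.074, Psmb3 -0.026, Psmb5 -0.095, Psmc3 -0.020, Psmd5 0.017, Psmd6 0.0063, Psmd10 0.18, Psmd12 0.020, Psmg4 -0.081, Psme2 -0.11 and Psme4 0.062. Without CR ZT6 2 and CR ZT18 2, Psmb5 had -0.092, Psmc3 -0.041, Psmd2 -0.084 and Psme2 -0.0069. Psmd12 had 0.0177, 0.0205, 0.0179 and 0.0034 with the size factors of the DESeq2 kind, the filter of 1 CPM, DESeq2 and no ribosomal RNA features, and Psmd10 had 0.0142, 0.0164 and 0.0140 in the first 3 of these. When 1 library was left out, Psma6 ran from -0.10 to 0.024, Psmb3 from -0.0093 to 0.16, Psmb5 from -0.043 to 0.16, Psmc3 from -0.0031 to 0.20, Psmc6 from -0.0072 to 0.11, Psmd2 from -0.072 to 0.079, Psmd8 from -0.055 to 0.13, Psmd12 from -0.063 to 0.029, Psmd10 from -0.10 to 0.085, Psmg4 from -0.10 to 0.26 and Psme2 from -0.069 to 0.099. The cause of the changes below was not tested. On the diet average the higher genes numbered 0 without composition factors and 3 without a filter or in DESeq2. Calls in either direction covered 7.55% of all genes without composition factors, 8.41% without a filter and 16.2% in DESeq2. They covered 12.4% in limma-trend and 11.5% in the additive model. The lower genes numbered 0 without composition factors and 3 without a filter. They numbered 2 in limma-trend and in the additive model. Some groups keep 1 library without AL ZT22 2C and AL ZT10 1, without CR ZT6 2 and CR ZT18 2, or without the 4 libraries. In these fits, in that order, Psmb9 had log2 fold changes of -0.56, -0.73 and -0.93, and Psmb8 -0.43, -0.55 and -0.66. Leaving out 1 library gave 1 to 5 higher and 0 to 3 lower genes; the lone library of a group is then assumed to vary like the others.

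At single time points, fits of 4 libraries alone called 1 higher gene at ZT2 and 1 lower gene at ZT14. These fits called 6.45% and 5.93% of all genes, in either direction. DESeq2 called 1 lower gene at ZT14 and 2 higher genes at ZT22, against 3.85% and 3.36% of all genes in either direction. The fit without a filter called 1 lower gene at ZT18 and 1 higher gene at ZT22, against 1.56% and 2.09%. Without the 4 libraries under 3% ribosomal RNA, some groups keep 1 library. Lower genes were then called at ZT10, ZT14 and ZT18, and their number is not read as a result. The higher gene at ZT14 was lost (0 genes) without composition factors, without AL ZT22 2C and AL ZT10 1, and with the replicate block. Without composition factors 16 genes were higher at ZT22, where the median log2 fold change of all genes was then 0.91. In that fit 11.0% of all genes were called at ZT22. Leaving out 1 library gave 0 to 1 higher genes at ZT14 and 0 to 1 lower genes at ZT10 and at ZT18. The change of the diet difference with time was called for 1 gene in DESeq2 and 1 without a filter, against 1.22% and 2.63% of all genes.

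Variation over the CR time points was called for 0 genes without composition factors or in the 12 CR libraries alone, 9 without a filter, 2 with a filter of 1 CPM in 12 libraries, 10 in DESeq2, 2 without ribosomal RNA features, 2 without AL ZT22 2C and AL ZT10 1, 1 without CR ZT6 2 and CR ZT18 2, and 12 without the 4 libraries; leaving out 1 library gave 0 to 16. Variation over the AL time points was called for 2 without composition factors, 26 in DESeq2, 7 with the replicate block, 1 without AL ZT22 2C and AL ZT10 1, and 2 without both AL ZT22 libraries; leaving out 1 library gave 1 to 24. Of all genes, variation over the CR time points was called for 10.7% without a filter and 8.89% with the filter of 1 CPM. It was called for 6.7% without ribosomal RNA features and 2.11% in the 12 CR libraries alone. Over the AL time points it was called for 3.62% with the replicate block. The 24 h cosine in CR livers was called for 1 gene in DESeq2, in limma-trend and with the filter of 1 CPM, against 4.71%, 1.83% and 2.72% of all genes. The difference in the log2 ratio of Psmb10 to Psmb7 was 1.09 (adjusted p = 0.0974) without AL ZT22 2C and AL ZT10 1 and 0.40 (adjusted p = 0.203) without the 4 libraries, in exact permutation tests, and 0.49 to 1.36 without 1 library. Differences of Psmb8 to Psmb5 and Psmb9 to Psmb6 kept their call under every prior count and set of libraries tried, at -0.64 to -0.46 and -0.98 to -0.78.

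The replicate numbers were not taken to pair the libraries. Deviations from group means of libraries with the same number correlated by -0.25 to 0.51 over 55 pairs of groups, with a median near 0. AL ZT22, whose libraries share a number, was left out of these pairs. Such correlations cannot exclude that some groups were handled together. With the number as a block, the diet average had the same 2 calls. Variation over the AL time points was then called for 7 genes rather than 14, against 3.62% of all genes. Psmd9 at ZT14 lost its call with the block (adjusted p = 0.0508 in edgeR's test).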
